A study of Mus musculus with 8 samples.

Results

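The core cardiac transcription factors are a small set of DNA-binding proteins, with a coactivator, that switch on heart muscle genes. In this set of 10 genes, Gata4 and Gata6 encode zinc-finger factors, Mef2a, Mef2c and Mef2d encode MADS-box factors, and Nkx2-5 encodes a homeodomain factor. Hand2 encodes a basic helix-loop-helix factor, Tbx20 a T-box factor, Srf the MADS-box serum response factor, and Myocd the SRF coactivator myocardin. The members were taken by symbol through the Entrez number of each row, and all 10 were found among the 23282 genes of the table. All 10 also passed the filter on low counts that left 14136 genes for testing.

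These proteins bind each other and neighbouring DNA sites, so that heart muscle genes are usually driven by several of them at once. GATA4, NKX2-5, HAND2 and TBX20 are needed to form the embryonic heart in mice, and all stay expressed in adult heart muscle cells. MEF2 and SRF bind A/T-rich sites and are controlled by cofactors, among them class IIa histone deacetylases and myocardin.

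Hearts of 4 AE3-null and 4 wild-type mice were profiled by RNA-seq, all of them male, of strain FVB/N and 4 months old. AE3-null mice lack a working Slc4a3 gene, which encodes AE3, an exchanger of chloride for bicarbonate in heart muscle cells. The labels give no further allele or treatment, and do not say how the null allele was made or which chambers were taken. Total counts were 9133628 to 27078351 in the AE3-null libraries and 14875281 to 19080858 in the wild-type libraries. Slc4a3 matched the labels, at 31.5 to 34.6 CPM (reads of a gene relative to the TMM-scaled total of its library) in AE3-null hearts and 378 to 389 CPM in wild-type hearts. All 9 cardiomyocyte markers were detected, with a summed level of 86484 to 93403 CPM in AE3-null hearts and 86862 to 94223 CPM in wild-type hearts.

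Gata6, Mef2a, Mef2c and Myocd rose in AE3-null hearts, each by 10.1% to 15.1%, and no member fell. The 3 members with negative fold changes (Srf, Nkx2-5 and Mef2d) had unadjusted p-values of 0.123, 0.131 and 0.297 in edgeR, and neither DESeq2 nor limma voom called any of them. The other 6 members were not called by edgeR's quasi-likelihood test at an adjusted p under 0.05. Over all tested genes 6.47% were called, with 3.16% higher in AE3-null hearts and 3.31% lower. The 4 risen members were also those whose AE3-null libraries all lay above the wild-type libraries, which held in that direction for 6.1% of all tested genes, against 12.2% in either direction. Over the 10 members the median log2 fold change was 0.09, and over all tested genes -0.0018. The number of members called moved when 1 library was left out, as did the number of all genes called, which was 915 with all 8 libraries. Without wild-type replicate 3, 5 members (the same 4 and Srf, which was lower) and 1727 genes were called. Without AE3-null replicate 1 or wild-type replicate 2, 2 members were called, with 581 and 610 genes. Without AE3-null replicate 2, AE3-null replicate 3 or wild-type replicate 1, 1 member was called, with 662, 569 and 658 genes. No member was called without AE3-null replicate 4 or wild-type replicate 4, by the same edgeR test, which called 407 and 431 of all genes there. In bulk heart tissue, fewer cells of a type and less RNA per cell cannot be told apart.

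**Figure D1:**
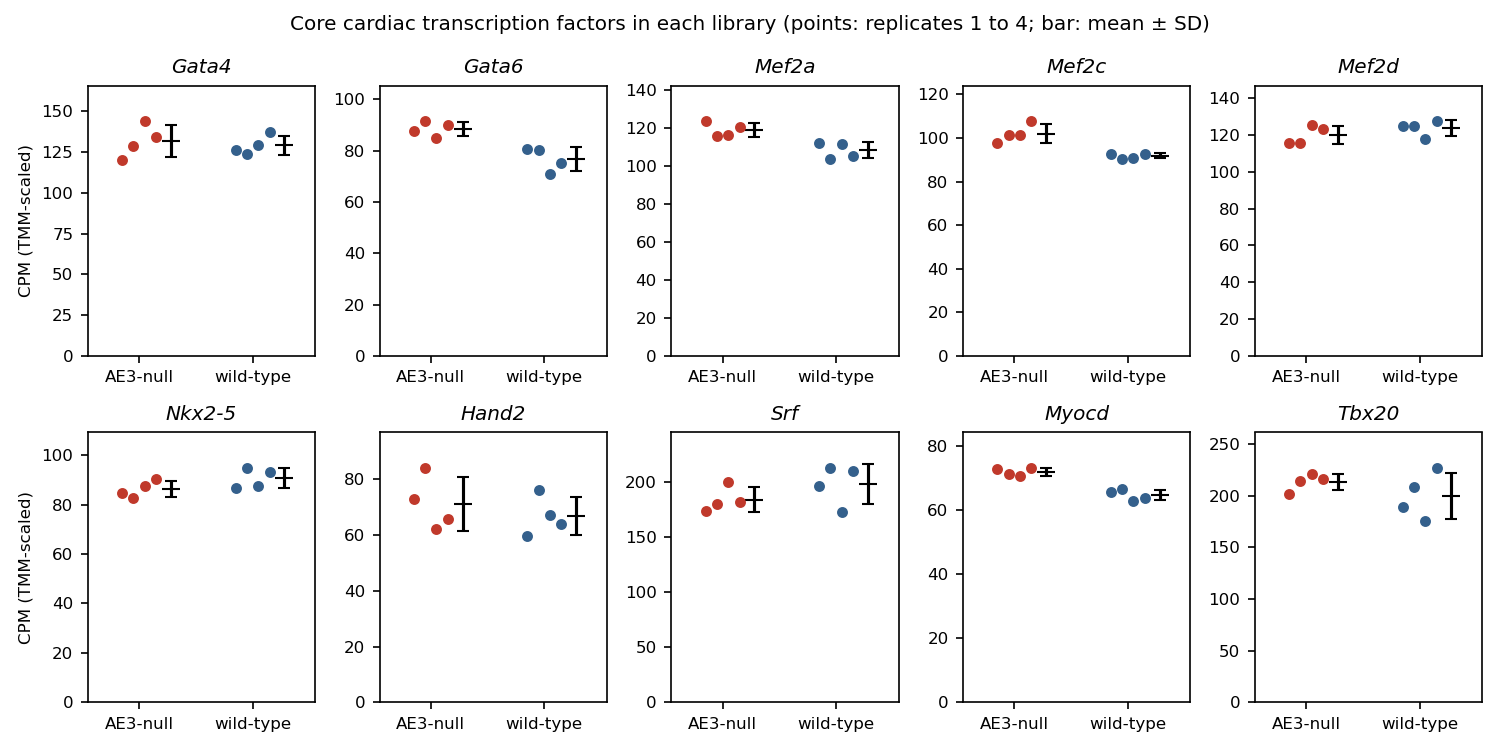
Level in CPM (vertical axis, from 0) of each member in the 4 AE3-null and 4 wild-type libraries; points are replicates 1 to 4 from left to right, and bars are the mean ± SD of 4. The genotypes do not overlap for Gata6, Mef2a, Mef2c and Myocd, and overlap for the other 6 members.

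Of the GATA factors, Gata6 rose and Gata4 was not called. Gata6 (Entrez 14465), which acts in heart muscle and also in vascular smooth muscle, was at 87.6, 91.5, 85.0 and 89.9 CPM in AE3-null replicates 1 to 4. It was at 80.8, 80.3, 71.0 and 75.0 CPM in wild-type replicates 1 to 4. Every AE3-null library lay above every wild-type library, with wild-type replicates 3 and 4 lowest. The means were 88.5 ± 2.83 and 76.8 ± 4.66 CPM in AE3-null and wild-type hearts (SD, n = 4 each), a log2 fold change of 0.20 (SE 0.047, edgeR adjusted p 0.0162). In a later annotation, 1.43% of Gata6 exon bases are also exons of the opposite-strand 1010001N08Rik, which was not found among the counted genes. Gata6 had the largest fold change of the 10 members. Its edgeR call was lost without AE3-null replicate 4 (adjusted p 0.0619) or wild-type replicate 4 (adjusted p 0.0595).

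Gata4 (Entrez 14463), the GATA factor most used as a marker of the heart muscle lineage, was at 120, 129, 144 and 134 CPM in AE3-null replicates 1 to 4. It was at 126, 124, 129 and 137 CPM in wild-type replicates 1 to 4, so the genotypes overlapped and both the lowest and the highest libraries were AE3-null. Its log2 fold change of 0.03 (SE 0.051, edgeR adjusted p 0.798) had a 95% interval of -0.08 to 0.14, and was -0.013 without AE3-null replicate 3. The number of Gata6 reads per Gata4 read averaged 0.675 ± 0.0615 in AE3-null and 0.597 ± 0.0564 in wild-type hearts (SD, n = 4 each), and the genotypes overlapped. An exact permutation test of this log2 ratio gave a two-sided p of 0.114 (0.143 adjusted over 5 ratios). A difference between the responses of Gata6 and Gata4 was thus not shown by these libraries.

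Of the MEF2 factors, Mef2a and Mef2c rose by similar amounts and Mef2d was not called. MEF2C is needed for heart looping in mouse embryos, and MEF2D carries much of the stress response of the adult mouse heart. Mef2c (Entrez 17260) was at 97.6, 102, 101 and 108 CPM in AE3-null replicates 1 to 4. It was at 92.8, 90.6, 91.1 and 92.8 CPM in wild-type replicates 1 to 4, the tightest group of any member by its standard deviation. All AE3-null libraries were higher, replicate 4 most. This is a log2 fold change of 0.15 (SE 0.040, edgeR adjusted p 0.0285), an 11.2% rise with a 95% interval of 4.90% to 17.8%. With single libraries left out the fold change stayed between log2 0.12 and 0.18. The edgeR call held without AE3-null replicate 1 or wild-type replicate 3, and in the other 6 cases the adjusted p was 0.0541 to 0.122.

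Mef2a (Entrez 17258), which encodes a MEF2 protein of adult heart and skeletal muscle, was at 124, 116, 117 and 121 CPM in AE3-null replicates 1 to 4. It was at 112, 104, 112 and 105 CPM in wild-type replicates 1 to 4. The genotypes did not overlap, but the gap between the lowest AE3-null and the highest wild-type library was only that between 116 and 112 CPM. This is a log2 fold change of 0.14 (SE 0.040, edgeR adjusted p 0.0464), the weakest of the 4 calls. It was lost in 10 of 17 alternatives. Only the fit without wild-type replicate 3 kept it among the 8 that left out 1 library, with adjusted p-values of 0.0547 to 0.140 in the other 7. It was also lost with limma voom (0.0519), without robust moderation (0.0594) and in a fit with replicate numbers as blocks (0.0546). In an annotation of a later build, 2.06% of the bases of Mef2a exons are also exons of Lysmd4 on the opposite strand. Lysmd4 itself was at 24.8 to 26.7 CPM in AE3-null hearts and 17.9 to 25.6 CPM in wild-type hearts. The counting was not stated to use strand, so reads from these bases cannot be assigned. A further limit is that 3.65% of the 50-base stretches in Mef2a transcripts also occur in transcripts of other genes.

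Mef2d (Entrez 17261) was at 116, 116, 125 and 123 CPM in AE3-null replicates 1 to 4, against 125, 125, 118 and 128 CPM in wild-type replicates 1 to 4. The genotypes overlapped, with a log2 fold change of -0.04 (SE 0.040, edgeR adjusted p 0.588, 95% interval -0.13 to 0.04). Of its exon bases, 8.87% also belong to the opposite-strand gene 1700113A16Rik, which was at 16.8 to 18.2 CPM in AE3-null and 13.5 to 15.9 CPM in wild-type hearts. No 50-base stretch of transcript was shared between any pair of MEF2 genes, nor between Gata4 and Gata6.

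Ratios of the MEF2 genes to each other were taken in each library, which cancels library scaling. None passed 0.05 after adjustment. There were 0.843, 0.876, 0.809 and 0.875 Mef2c reads per Mef2d read in AE3-null replicates 1 to 4, against 0.742, 0.727, 0.774 and 0.727 in wild-type replicates 1 to 4. The genotypes did not overlap, and the log2 ratio differed by 0.20. The exact two-sided permutation p was 0.0286, the smallest that 4 against 4 libraries can give, and 0.0952 adjusted over the 5 ratios. A single ratio at that smallest p cannot pass 0.05 after this adjustment, so the adjusted test cannot decide whether this ratio differed. Mef2a reads per Mef2d read averaged 0.995 ± 0.0564 in AE3-null and 0.877 ± 0.0584 in wild-type hearts (SD, n = 4 each), with overlap (exact permutation p 0.0571, 0.0952 adjusted). Mef2a reads per Mef2c read averaged 1.17 ± 0.0664 in AE3-null and 1.18 ± 0.0451 in wild-type hearts (SD, n = 4 each). The exact permutation p of that last ratio was 0.857, and its log2 difference of -0.01 turned positive, at 0.0063 on leaving out AE3-null replicate 4 and 0.0061 on leaving out wild-type replicate 3. The 5 ratios are those within a family and of coactivator to factor, and were chosen with the members' values known.

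**Figure D2:**
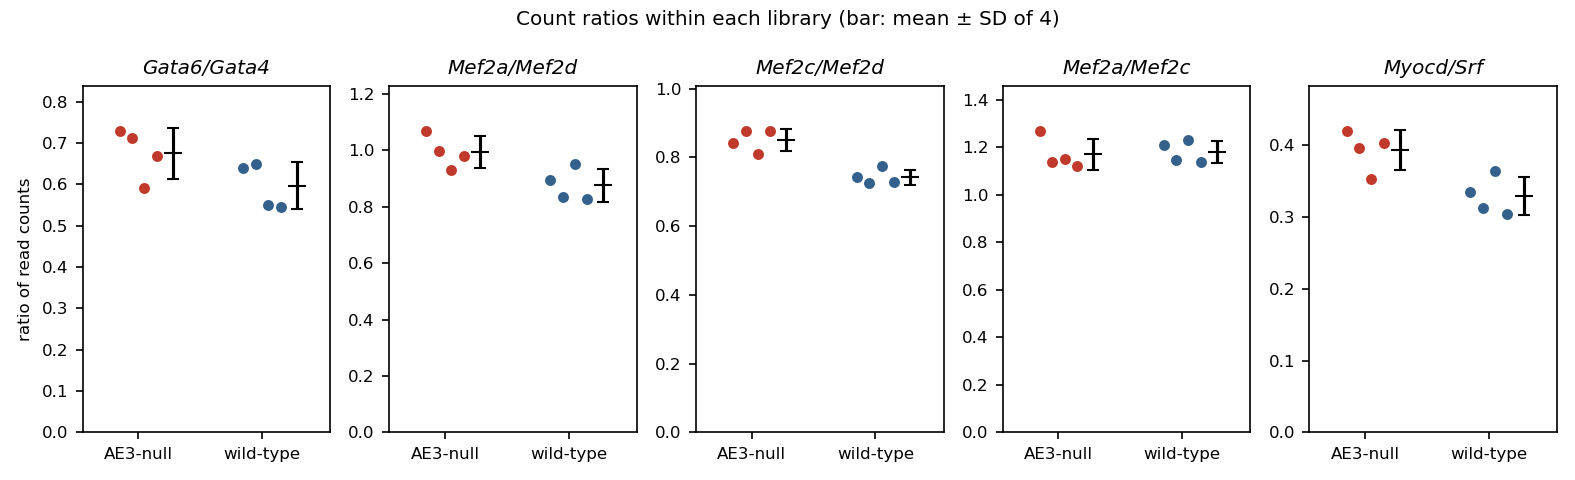
Read counts of one member divided by those of another in the same library (vertical axes, from 0), in 4 AE3-null and 4 wild-type libraries; bars are the mean ± SD of 4. Only Mef2c per Mef2d separates the genotypes, at 0.809 to 0.876 in AE3-null and 0.727 to 0.774 in wild-type libraries.

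Per kilobase of exon, Mef2d was the most abundant of the MEF2 genes. It made up 57.8% ± 0.996 of their summed level in AE3-null hearts and 61.0% ± 1.18 in wild-type hearts (SD, n = 4 each). Mef2a made up 23.4% ± 0.973 in AE3-null and 21.8% ± 1.02 in wild-type hearts, and Mef2c 18.7% ± 0.546 in AE3-null and 17.2% ± 0.187 in wild-type hearts. These shares depend on the gene lengths used. With the longest protein-coding transcript as length, a choice made after the data were seen, Mef2a and Mef2d were nearly level, at 21.5 ± 0.672 and 22.2 ± 0.898 CPM per kilobase in AE3-null hearts. In wild-type hearts they were at 19.6 ± 0.772 and 22.9 ± 0.784 CPM per kilobase, and Mef2c stayed lowest of these genes in both genotypes, at 16.3 ± 0.669 in AE3-null and 14.6 ± 0.183 in wild-type hearts (SD, n = 4 each).

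The sequences just before the start sites of the MEF2 genes are shown because Mef2a and Mef2c were called and Mef2d was not, although a difference between their responses did not pass its test. They are the 250 bases 5′ of the start in RefSeq (build GRCm38.p6, a later build than the mm9 of the counts), for Mef2a at chr7:67372859-67373108 on the minus strand, Mef2c at chr13:83503784-83504033 on the plus strand and Mef2d at chr3:88142122-88142371 on the plus strand. Mef2c has 3 start sites in that table and the most upstream is shown. Capitals mark any match to 7 motifs.
Mef2a: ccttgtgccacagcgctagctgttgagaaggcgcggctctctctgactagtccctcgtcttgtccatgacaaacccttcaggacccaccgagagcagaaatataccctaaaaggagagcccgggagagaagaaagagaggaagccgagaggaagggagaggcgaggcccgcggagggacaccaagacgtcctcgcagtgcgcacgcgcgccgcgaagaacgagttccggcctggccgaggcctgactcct
Mef2c: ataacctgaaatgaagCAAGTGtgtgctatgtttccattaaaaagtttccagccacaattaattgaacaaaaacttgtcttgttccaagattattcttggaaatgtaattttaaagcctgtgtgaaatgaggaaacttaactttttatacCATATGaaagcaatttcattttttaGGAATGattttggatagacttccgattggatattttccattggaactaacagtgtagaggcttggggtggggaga
Mef2d: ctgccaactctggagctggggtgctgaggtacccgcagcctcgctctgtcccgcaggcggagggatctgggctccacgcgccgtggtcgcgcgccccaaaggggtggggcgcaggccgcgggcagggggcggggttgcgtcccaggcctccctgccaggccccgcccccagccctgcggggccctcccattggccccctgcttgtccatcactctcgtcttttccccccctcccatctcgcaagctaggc

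Each motif was searched on both strands of these windows, and its frequency was taken over the same 250 bases of all 32851 start sites in the table. The motifs, with the share of start sites holding each, were the GATA site (AGATAA with its variant AGATAG, or TGATAA with its variant TGATAG, 26.5%), the NKX2-5 core AAGTG (40.7%), the E-box CANNTG bound by HAND and related factors (66.2%) and the T-box motif AGGTGT (11.8%). The others were the TEAD-bound MCAT motif CATTCC (12.6%), the SRF-bound CArG box (1.47%) and the MEF2 site (2.92%). The Mef2a and Mef2d windows held no match, and the sequence of Mef2d was the richer in G and C, at 73.2% against 61.6% in Mef2a. The Mef2c window, with 33.6% G and C, held E-boxes beginning 234 and 100 bases before the start, the first overlapping an NKX2-5 core, and an MCAT motif beginning 75 bases before it. The windows of the other Mef2c starts held other matches. Start site 2 had a T-box motif and an NKX2-5 core, and start site 3 an E-box and an NKX2-5 core. The counts do not tell start sites apart.

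Myocd rose in AE3-null hearts, while Srf, whose protein it activates, had a negative fold change that was not called. Myocardin binds SRF and drives heart and smooth muscle genes. Myocd (Entrez 214384) was at 72.8, 71.4, 70.7 and 73.4 CPM in AE3-null replicates 1 to 4, against 65.7, 66.7, 63.0 and 64.0 CPM in wild-type replicates 1 to 4. Both groups were tight and did not overlap, with a log2 fold change of 0.15 (SE 0.040, edgeR adjusted p 0.0318, 95% interval 0.07 to 0.24). Over the fits that left out 1 library the fold change was log2 0.14 to 0.17. The edgeR call held without wild-type replicate 2 or 3, and the adjusted p was 0.0541 to 0.111 in the other 6 cases.

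Srf (Entrez 20807) was at 174, 180, 200 and 182 CPM in AE3-null replicates 1 to 4, against 196, 213, 173 and 210.1 CPM in wild-type replicates 1 to 4. Wild-type replicate 3 was the lowest of all 8 libraries and wild-type replicates 2 and 4 were the highest, so the groups overlapped. Its log2 fold change stood at -0.11 (SE 0.065, edgeR adjusted p 0.377, 95% interval -0.25 to 0.03). Without wild-type replicate 3 it was -0.16 and Srf was called (edgeR adjusted p 0.0296). In that fit 1727 of all tested genes were called in place of 915. Myocd reads per Srf read averaged 0.393 ± 0.0282 in AE3-null and 0.329 ± 0.0263 in wild-type hearts (SD, n = 4 each), overlapping only through AE3-null replicate 3 (0.353) and wild-type replicate 3 (0.363). The exact permutation p was 0.0571, and 0.0952 adjusted over 5 ratios.

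The start of Srf is shown because it holds the motif that the SRF protein itself binds. The 250 bases before its RefSeq start lie at chr17:46556163-46556412 on the minus strand of GRCm38.p6, and capitals mark matches to the same motifs.
Srf: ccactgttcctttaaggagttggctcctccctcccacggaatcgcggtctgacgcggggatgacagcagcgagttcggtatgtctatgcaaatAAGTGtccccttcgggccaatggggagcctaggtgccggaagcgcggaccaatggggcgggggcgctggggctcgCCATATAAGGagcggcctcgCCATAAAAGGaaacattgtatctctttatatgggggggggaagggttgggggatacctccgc

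The window held 2 CArG boxes, CCATATAAGG and CCATAAAAGG, beginning 82 and 62 bases before the start, and an NKX2-5 core 157 bases before it. A CArG box was present in 1.47% of all such windows, and in no other of the 9 windows that the table gave for 7 of the members.

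Nkx2-5, Hand2 and Tbx20 were not called. Nkx2-5 (Entrez 18091), a homeodomain factor of heart muscle and conduction tissue, was at 84.5, 82.5, 87.7 and 90.2 CPM in AE3-null replicates 1 to 4. It was at 86.8, 94.9, 87.6 and 93.2 CPM in wild-type replicates 1 to 4. The groups overlapped, with a log2 fold change of -0.07 (SE 0.044, edgeR adjusted p 0.392, 95% interval -0.16 to 0.02). The fold change kept this sign in all 17 alternatives, between -0.09 and -0.05.

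Tbx20 (Entrez 57246), a T-box factor required for adult heart function in mice, was at 202, 214, 221 and 217 CPM in AE3-null replicates 1 to 4. In wild-type replicates 1 to 4 it was at 189, 208, 176 and 227 CPM. The wild-type libraries held both the lowest and the highest value. Its log2 fold change stood at 0.09 (SE 0.071, edgeR adjusted p 0.507, 95% interval -0.06 to 0.25), and single libraries moved it between 0.04 and 0.16.

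Hand2 (Entrez 15111), which in the mouse embryo is needed for the right ventricle, had the most variable AE3-null libraries of the members. It was at 72.7, 84.0, 62.0 and 65.7 CPM in AE3-null replicates 1 to 4 and at 59.7, 76.0, 67.1 and 64.0 CPM in wild-type replicates 1 to 4. Its standard deviation was 13.6% of the mean in AE3-null and 10.4% in wild-type hearts. The log2 fold change of 0.08 (SE 0.105, edgeR adjusted p 0.722) had a 95% interval of -0.16 to 0.32, the widest of any member, which takes in the fold changes of all 4 risen members. It ranged from 0.0065 to 0.15 with 1 library left out. Of its exon bases 19.6% are shared with Hand2os1, an opposite-strand RNA not analysed here.

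No window was given for Gata4, Gata6 or Myocd. Of the 9 windows given for the other 7 members, only that of Hand2 held GATA sites, which 26.5% of all such windows hold. The start of Hand2 is shown for that reason. It lies at chr8:57320733-57320982 on the plus strand of GRCm38.p6.
Hand2: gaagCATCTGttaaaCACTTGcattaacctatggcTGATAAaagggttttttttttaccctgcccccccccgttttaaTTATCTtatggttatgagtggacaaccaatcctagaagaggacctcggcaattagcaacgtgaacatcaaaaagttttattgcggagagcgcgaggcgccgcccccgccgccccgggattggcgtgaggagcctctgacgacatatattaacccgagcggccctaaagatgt

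The GATA sites began 215 and 172 bases before the start. E-boxes began 246 and 235 bases before it, the second overlapping an NKX2-5 core.

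**Figure D3:**
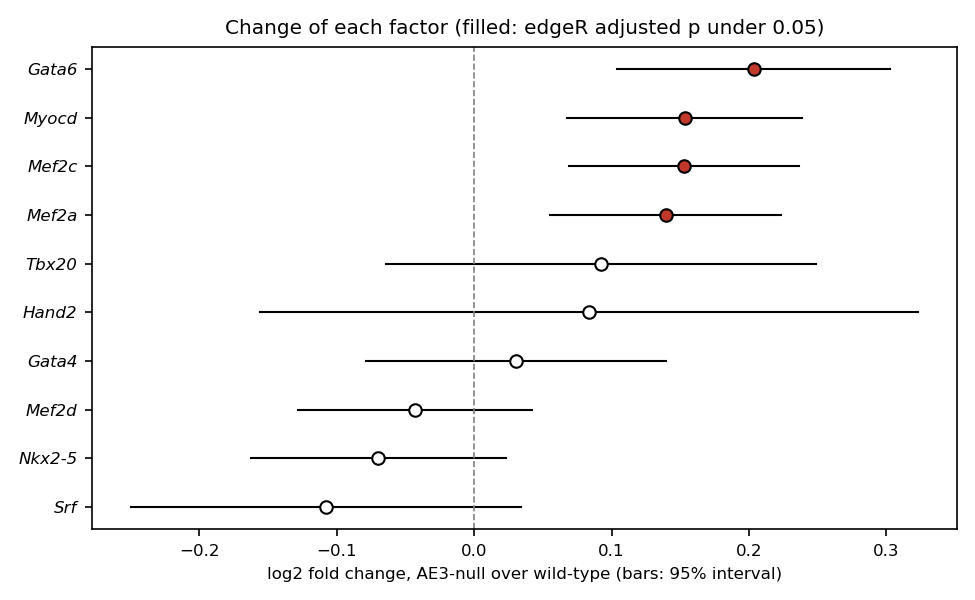
Log2 fold change of AE3-null over wild-type (horizontal axis) for each member with its 95% interval, from edgeR on 4 libraries of each genotype; filled points were called at an adjusted p under 0.05. Gata6, Myocd, Mef2c and Mef2a are filled, at 0.14 to 0.20, and the intervals of the other 6 members include 0.

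Levels spanned a wide range among the members once gene length was taken into account. Per kilobase of exon, Srf was highest at 63.6 ± 3.91 in AE3-null and 68.5 ± 6.29 CPM per kilobase in wild-type hearts (SD, n = 4 each). Nkx2-5 followed at 50.2 ± 1.96 in AE3-null and 52.7 ± 2.34 in wild-type hearts, then Gata4 at 33.8 ± 2.55 and Hand2 at 30.2 ± 4.12 in AE3-null hearts. The wild-type levels of Gata4 and Hand2 were 33.1 ± 1.53 and 28.4 ± 2.94. Below them came Mef2d, Tbx20, Gata6, Myocd, Mef2a and Mef2c, the last at 6.49 ± 0.267 in AE3-null and 5.84 ± 0.0731 in wild-type hearts. By exon length the order was the same in both genotypes, and Gata4 and Hand2 were the only neighbours whose libraries overlapped. The top 4 kept their order with the longest protein-coding transcript as length. Among the lower 6, Gata6 then moved up to rank 5 and Myocd down to rank 10. Tbx20 and Mef2d then ranked 6 and 7 in AE3-null hearts, but 7 and 6 in wild-type hearts.

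The genes whose pattern over the 8 libraries lay nearest to each risen member, among 10981 others whose mean reached 5 CPM, were chosen by the root-mean-square distance of centred log2 CPM. The smallest distances were 0.031 for Emilin2 and 0.038 for Perp from Gata6, and 0.026 for Slc20a2 and 0.028 for Grb14 from Mef2a. From Mef2c they were 0.020 for Snx30 and 0.025 for Tesk1, and from Myocd 0.027 for Clip4 and 0.028 for Atp11a. The distance takes in the genotype difference, and all 8 genes had positive log2 fold changes, between 0.11 and 0.25. Of these genes, Snx30, Tesk1 and Clip4 were not called by edgeR (adjusted p 0.184, 0.205 and 0.0738). With 1 library left out, Emilin2 and Perp were called in all 8 fits, while Slc20a2 was called in 2, Grb14 in 4 and Atp11a in 6.

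Other transcription factors of the heart were mostly not called. Of 32 listed, 28 passed the filter, 2 rose (7.14% called) and none fell, with a median log2 fold change of 0.05. Hopx, a homeodomain protein that does not bind DNA and restrains SRF, was at 251 to 274 CPM in AE3-null hearts and 213 to 240.5 CPM in wild-type hearts (log2 0.24, SE 0.044, edgeR adjusted p 0.0039). Tbx5, the T-box partner of GATA4 and NKX2-5, was at 47.7 to 57.5 CPM in AE3-null and 41.0 to 48.1 CPM in wild-type hearts (log2 0.27, SE 0.062, edgeR adjusted p 0.0169). Hopx was called in all 17 alternatives. Tbx5 overlapped between the genotypes and lost its call without AE3-null replicate 3, AE3-null replicate 4, wild-type replicate 1 or wild-type replicate 4, with edgeR adjusted p-values of up to 0.0696. Hand1, Nkx2-6, Isl1 and Irx6 did not pass the filter, and Nkx2-6 had no count in any library. Of the list 4 were called without wild-type replicate 3, and 1 without AE3-null replicate 3, AE3-null replicate 4 or wild-type replicate 1.

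Of 36 cofactors and regulators of the core factors, 3 rose and 1 fell (11.1% called), with a median log2 fold change of -0.0026. The genotypes did not overlap for 9 of the 36, and for 12.2% of all tested genes. The largest fold change of the list was that of Abra, at log2 -0.77 (SE 0.186), which was not called (edgeR adjusted p 0.0656). Abra was at 35.3 to 49.1 CPM in AE3-null and 52.0 to 82.9 CPM in wild-type hearts. The LIM protein gene Csrp2, whose product works with SRF and GATA factors in smooth muscle, rose by log2 0.40 (SE 0.074, edgeR adjusted p 0.0040). Smarcd3, a chromatin remodelling subunit of the developing heart, rose by log2 0.22 (SE 0.048, edgeR adjusted p 0.0118). Jarid2, a repressive chromatin cofactor, rose by log2 0.20 (SE 0.049, edgeR adjusted p 0.0251). Fhl2, which encodes a LIM-only protein that binds SRF, fell by log2 -0.21 (SE 0.035, edgeR adjusted p 0.0019), to 1000.3 to 1048 CPM in AE3-null hearts, against 1140 to 1259 CPM in wild-type hearts. The calls of Csrp2 and Fhl2 held in all 17 alternatives. That of Smarcd3 was lost without AE3-null replicate 4 (adjusted p 0.0590), and that of Jarid2 without replicate 1 or 4 of either genotype (up to 0.103). None of the class IIa deacetylases that restrain MEF2 (Hdac4, Hdac5, Hdac7 and Hdac9) was called. Their log2 fold changes were 0.04, 0.09, -0.11 and 0.06, with edgeR adjusted p-values of 0.788, 0.148, 0.136 and 0.854. Without AE3-null replicate 4, 2 of the cofactor list were called.

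Of 40 heart muscle genes known as targets of these factors, 6 rose and 3 fell (22.5% called), with a median log2 fold change of 0.0049. Gja5, a connexin gene of atrial and conducting muscle, rose by log2 0.58 (SE 0.064, edgeR adjusted p 8.32e-05), and the atrial light chain gene Myl7 by log2 0.47 (SE 0.052, edgeR adjusted p 0.000167). The muscarinic receptor gene Chrm2 rose by log2 0.27 (SE 0.047, edgeR adjusted p 0.0028) and the Z-disc protein gene Nebl by log2 0.23 (SE 0.044, edgeR adjusted p 0.00487). These 4 held in all 17 alternatives. Among the 6 risen genes, Gja5, Myl7 and Nppa are also on the atrial marker list. Acta1, the skeletal actin gene, had a log2 fold change of -1.45 (SE 0.209, edgeR adjusted p 0.0139). The calcium-binding Hrc had -0.13 (SE 0.031, edgeR adjusted p 0.0183) and the desmin gene Des -0.16 (SE 0.043, edgeR adjusted p 0.0431). The call of Acta1 was lost without AE3-null replicate 4 (edgeR adjusted p 0.0519). Hrc lost its call without AE3-null replicate 2, 3 or 4 or wild-type replicate 1 (adjusted p up to 0.0656), and Des in 10 of 17 alternatives, 7 of them with 1 library left out and the rest limma voom, no robust moderation and the block (adjusted p up to 0.149). The myosin genes Myh6 and Myh7 had log2 fold changes of 0.0082 (SE 0.040) and 0.0017 (SE 0.039).

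Of 22 immediate early and smooth muscle targets of SRF, 1 rose and none fell (4.55% called), with a median log2 fold change of 0.04. The smooth muscle myosin gene Myh11 was at 100.5 to 124 CPM in AE3-null hearts and 84.2 to 90.9 CPM in wild-type hearts (log2 0.32, SE 0.056, edgeR adjusted p 0.0040), and was called in all 17 alternatives. Without wild-type replicate 3, 2 of the list were called, 1 in each direction.

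**Figure D4:**
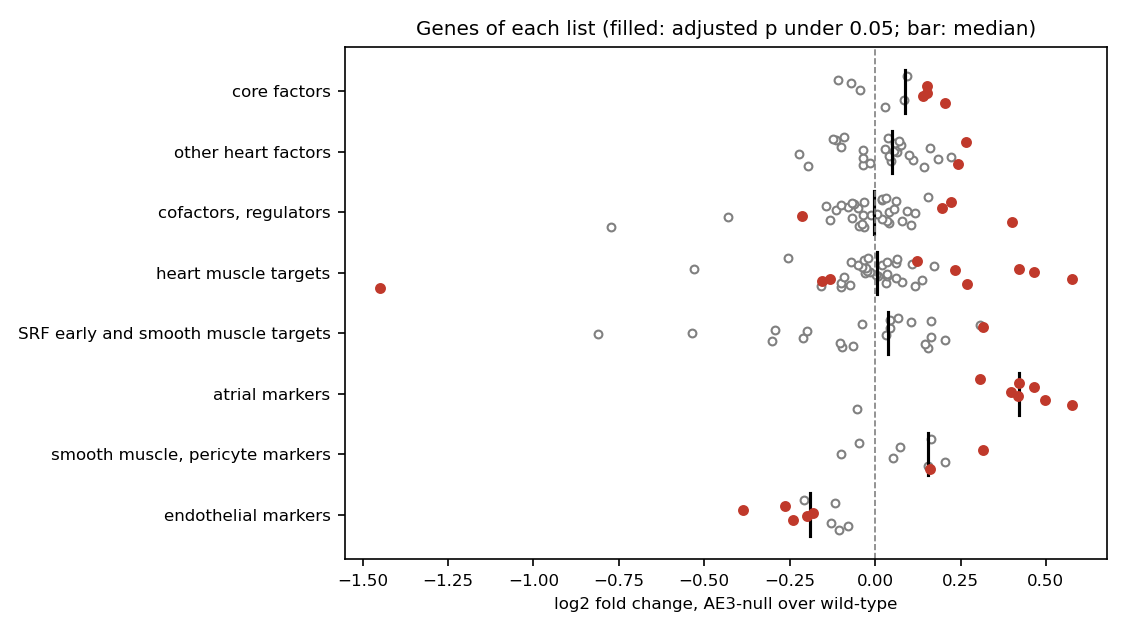
Log2 fold change of AE3-null over wild-type (horizontal axis) for every tested gene of the core factors, 4 lists of related genes and 3 lists of cell type markers; filled points were called at an adjusted p under 0.05 and the bars are medians. The core factors have a median of 0.09, the atrial markers 0.42 and the endothelial markers -0.19.

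Markers of other cell types moved with genotype beside the 4 risen members. Atrial cardiomyocyte markers rose in 7 of 8 cases, with a summed level of 4040 to 4660 CPM in AE3-null and 3045 to 3596 CPM in wild-type hearts. Most of that sum was Nppa, with means of 2783 CPM in AE3-null and 2077 CPM in wild-type hearts. The atrial marker not called, Bmp10, had a log2 fold change of -0.05 (SE 0.120, edgeR adjusted p 0.862). Smooth muscle and pericyte markers rose in 2 of 9 cases (Myh11 and Abcc9), with a sum of 1466 to 1572 CPM in AE3-null and 1361 to 1417 CPM in wild-type hearts. Much of this sum was Abcc9, with means of 720 CPM in AE3-null and 644 CPM in wild-type hearts. The log2 fold changes were positive for 7 of these markers and negative for 2 (Kcnj8 at -0.10 and Rgs5 at -0.05). Endothelial markers fell in 5 of 10 cases, with a sum of 1506 to 1578 CPM in AE3-null and 1717 to 1881 CPM in wild-type hearts. None of these markers was at 0 in all libraries. Of 4 tested markers of sympathetic neurons and Schwann cells, 1 rose: Dbh, which encodes the enzyme that makes noradrenaline, was at 6.32 to 7.58 CPM in AE3-null and 3.32 to 4.72 CPM in wild-type hearts (log2 0.82, SE 0.123, edgeR adjusted p 0.000911). All 4 had positive log2 fold changes, with a median of 0.31, and summed to 17.3 to 20.1 CPM in AE3-null and 12.9 to 15.8 CPM in wild-type hearts. GATA6 and myocardin also act in smooth muscle, MEF2C in endothelium and HAND2 in sympathetic neurons, and the part of these cells in the members' values was not tested. Cardiomyocyte markers were called in 1 of 9 cases (Tnnt2, log2 0.12), fibroblast markers in 3 of 9, all lower, and epicardial markers in 1 of 6. The fibroblast list was mixed, with 4 positive and 5 negative log2 fold changes, from -0.31 to 0.31. Its sums overlapped, at 1605 to 1645 CPM in AE3-null and 1520 to 1687 CPM in wild-type hearts. No marker was called among 8 for macrophages, 4 tested for adipocytes and 4 tested for red cells. Red cell markers, with a median of -0.60 on the log2 scale, summed to 1672 to 2321 CPM in AE3-null and 2413 to 3840 CPM in wild-type hearts.

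**Figure D5:**
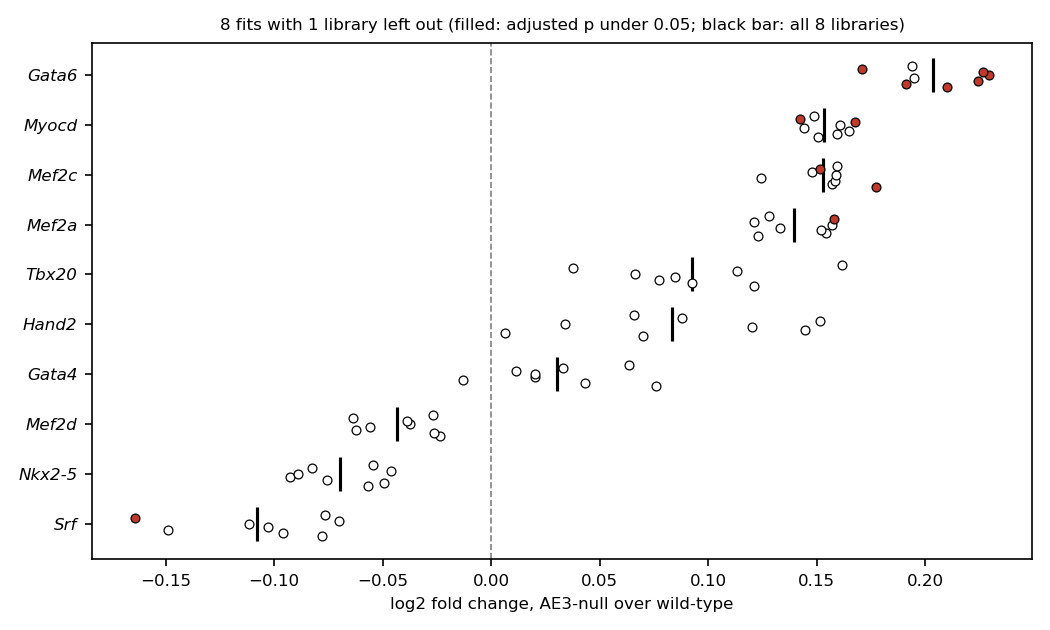
Log2 fold change of AE3-null over wild-type (horizontal axis) of each member in the 8 edgeR fits that each left out 1 library; filled points had an adjusted p under 0.05, and black bars are the values from all 8 libraries. Gata6 stays between 0.17 and 0.23 and is filled in 6 of 8 fits, while Mef2a stays between 0.12 and 0.16 and is filled in 1.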

How the data were processed

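The authors deposited read counts for each gene and library, not normalized. The submitters' processing notes name bcl2fastq, CASAVA 1.8, TopHat, DESeq and the mouse build mm9, with no role for any of them. How reads were counted, with which strand setting and annotation, is not stated there. Of 23282 Entrez numbers, 23185 matched a symbol in a RefSeq table of GRCm38.p6. Genes were filtered with filterByExpr (minimum count 10), scaled by TMM and tested by quasi-likelihood in edgeR (glmQLFit with robust moderation, genotype as the only term). Benjamini-Hochberg adjustment ran over all 14136 tested genes. Each standard error is the fold change over the root of its F value. The labels do not tie libraries to mice beyond the number per genotype, and p-values rest on the spread among libraries, which may be technical.

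Exon lengths, overlaps and shared sequence came from GENCODE M21. The alternatives were RLE factors, total counts only, no filter, a minimum count of 50, DESeq2, limma voom, no robust moderation, a looser adjusted p (0.1), blocks by replicate number, and fits lacking 1 library each. The 10 members, the 4 other gene lists and the 10 marker lists were chosen with earlier results of these data known. Of the marker genes, 1 is not reported here. All members were named, with up to 4 called genes of each list in each direction by smallest p. The 2 genes nearest each called member were named too, and all others were chosen after their values were seen. Within a genotype, pairs of libraries differed by a chi-square of at least 2.57 per gene, so none was a copy. The steps were tested on simulated data. The planted changes were all larger than those of the risen members, so recovery of changes that small was not tested. Fits used edgeR 4.0.16, DESeq2 1.42.0 and limma 3.58.1 in R 4.3.3, and sequences were read in Python 3.11.15.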

Additional observations from a re-analysis of the deposited data

Results flagged for a closer look

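Of 33 genes examined (the members, Slc4a3, the genes named by rule from the other lists and the nearest genes), 1 had a library that stood apart from the other 3 of its group by more than Dixon's criterion for 4 values. Gja5 was at 40.4 CPM in AE3-null replicate 2, the shallowest library, against 46.1 to 47.2 CPM in the other AE3-null libraries and 27.4 to 32.7 CPM in wild-type libraries. Examining each gene in both genotypes makes 66 groups, and chance flags about 1 in 20 groups. None of the 10 members had such a library.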

How the results depend on the processing

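The fold changes of the 4 risen members kept their sign in all 17 alternatives, at log2 0.17 to 0.23 for Gata6, 0.12 to 0.16 for Mef2a, 0.12 to 0.18 for Mef2c and 0.14 to 0.17 for Myocd, while their calls did not. With 1 library left out, 0 to 5 of the 10 members were called, 407 to 1727 of all genes, 1 to 4 other heart transcription factors, 2 to 6 cofactors, 6 to 9 heart muscle targets and 1 to 2 SRF targets. In such fits the log2 fold change of Gata4 ranged from -0.013 to 0.076, and the difference in the Mef2a to Mef2c log2 ratio from -0.053 to 0.0063. At an adjusted p under 0.1, 1546 genes were called, and DESeq2 called 2 SRF targets. Scaling by total counts alone gave 528 higher and 361 lower calls, against 447 and 468 with TMM. Deviations of same-numbered libraries correlated at 0.16, -0.04, 0.02 and -0.0028 over 14136 genes. These values do not show that replicate numbers pair the libraries, and without a reference value they cannot exclude it. Only replicate 1 correlated best with its own number. With the replicate number as a block 1002 genes and 3 members were called, without Mef2a. With another gene length 18 of 20 levels per kilobase moved by more than the spread between libraries. The SE of the members' log2 fold changes was 0.040 to 0.105, and did not follow depth: Myocd, with 663 to 1992 reads a library, had 0.040, and Tbx20, with 1990 to 5882, had 0.071.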
